A study of Mus musculus with 6 samples.

Results

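Heat shock proteins are chaperones, which hold other proteins in a state that can fold. The description covers 10 genes: Hspa1a, Hspa1b, Dnajb1, Hsph1, Hspb1, Hspa8, Hsp90aa1, Hspd1, Hspe1 and Hspa5. They were taken by symbol from the 32285 genes of the count tables, and each was read in every cell class and library. The genes were picked with earlier results of these data known, so their values are a description and their directions support nothing on their own.

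The study asked how mouse lung recovers from neonatal hyperoxia and whether the sexes differ. The animals were wild-type C57BL/6N, and lung cells were sequenced one by one, each transcript being read as a unique molecular identifier (UMI). There were 6 libraries, and each was 1 pool of 3 mice of 1 sex. Newborns breathing room air (21% O2) gave a female and a male library at postnatal day 1. Room-air mice at postnatal day 21 gave another female and male pair. The third pair, also at postnatal day 21, had breathed 95% O2 between days 1 and 5 and was then kept in room air. Pups of different litters were randomised between the exposures, per the labels. All 6 groups shared the same cell preparation: digestion with enzymes and mechanical dissociation, which included 20 min at 37 °C, and a sort for live cells. No group had more than 1 library, so in the tests the 2 sexes stood in for replicates, and p-values measured the spread between these pools only. The hyperoxia and age fits also removed the difference between the sexes, which left 1 residual degree of freedom. The spread in those fits was therefore how far the changes of the 2 sexes disagreed, in an estimate that borrows from other genes. It was not a spread between replicate pools of a group.

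Most chaperones of the cytosol are switched on by heat shock factor 1 when unfolded proteins build up. Hspa1a and Hspa1b encode the inducible HSP70, Dnajb1 a J-domain protein that hands clients to HSP70, Hsph1 a nucleotide exchange factor of HSP70, and Hspb1 the small heat shock protein HSP27, which also binds actin. Hspa8 is the constitutive HSC70, and Hsp90aa1 is the inducible form of cytosolic HSP90. Hspd1 and Hspe1 encode HSP60 and HSP10, the chaperonin of the mitochondrial matrix, and Hspa5 encodes BiP, the HSP70 of the endoplasmic reticulum and a target of the unfolded protein response. Warm digestion of tissue is known to raise several of these transcripts together with immediate early genes such as Fos and Egr1. A list of 29 immediate early and dissociation-associated genes was therefore read beside them throughout.

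The start regions of several of these genes carry elements by which the family is known, and the sequences below show how alike the inducible pair is. RefSeq windows on GRCm38.p6, from 250 bases before to 50 bases after a start site, were found for 8 of the 10 genes. Hspa8 and Hsp90aa1 had no entry in the set of windows used here. The heat shock element of 3 units, GAANNTTC with NNGAA directly after it, was searched on both strands and lay in 0.603% of 32851 promoter windows and in those of Hsph1 (after the start), Hspd1 and Hspe1. GAANNTTC alone, which overlaps it, lay in 7.86% of windows, and was present in 6 of the members: Hspa1a, Hspa1b, Hspb1, Hsph1, Hspd1 and Hspe1. The tail-to-tail form TTCNNGAA, which overlaps both, lay in 8.52% of windows and in those of Hsph1, Hspd1 and Hspe1. The endoplasmic reticulum stress element, CCAAT and CCACG with 9 free bases between them, lay in 0.119% of windows and, of the members, in Hspa5 alone. Dnajb1 had none of these letters in its window. Each sequence below reads 5′ to 3′ on the gene's own strand, and capitals mark the matched letters.
Hspa1a, chr17:34972157-34972306, minus strand: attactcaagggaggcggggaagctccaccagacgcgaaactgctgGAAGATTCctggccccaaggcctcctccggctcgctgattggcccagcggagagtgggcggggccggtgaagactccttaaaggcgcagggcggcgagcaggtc
Hspa1b, chr17:34959239-34959388, minus strand: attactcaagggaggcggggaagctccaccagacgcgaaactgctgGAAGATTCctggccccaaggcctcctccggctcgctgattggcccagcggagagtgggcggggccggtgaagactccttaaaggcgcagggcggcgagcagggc
Hspb1, chr5:135887769-135887918, plus strand: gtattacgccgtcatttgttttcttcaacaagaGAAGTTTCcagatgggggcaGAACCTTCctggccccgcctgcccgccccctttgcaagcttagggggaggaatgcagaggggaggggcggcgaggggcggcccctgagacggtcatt
Hspd1, chr1:55088053-55088082, minus strand: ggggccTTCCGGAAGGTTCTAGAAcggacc
Hspe1, the same bases on the plus strand: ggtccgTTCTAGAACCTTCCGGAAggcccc
Hspa5, chr2:34772020-34772048, plus strand: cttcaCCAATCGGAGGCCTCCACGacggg

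The Hspa1a and Hspa1b stretches, which end at the base before each start site, were identical at 149 of 150 bases. Over the whole 300-base windows they shared 296 bases. Hspd1 and Hspe1 lie head to head and share 1 stretch, with the element 144 bases before the annotated start of 1 Hspd1 transcript and 89 bases before that of Hspe1. These matches are a description of the letters and show no binding.

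In the GENCODE M21 annotation (GRCm38), Hspa1a (chr17:34969190-34972156, minus strand) and Hspa1b (chr17:34956436-34959238, minus strand) have no introns. Their transcripts were 83.8% identical, but the last 400 bases, nearest to where 3′ libraries are read, were 43.8% identical. How reads that fit both genes were counted is not given in the sources used here, so the split between Hspa1a and Hspa1b is uncertain. Hspa1a shares 2225 bases with Gm20481 on the opposite strand, and Hspd1 (chr1:55077835-55088243, minus strand) shares 112 bases with Hspe1 (chr1:55088132-55091307, plus strand). Hspb1 lies at chr5:135887919-135889563, Hsph1 at chr5:149614287-149636376, Dnajb1 at chr8:83608193-83612653, Hspa8 at chr9:40800984-40810087, Hsp90aa1 at chr12:110690605-110702728 and Hspa5 at chr2:34771970-34777547.

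The libraries held 122173482 to 163649658 UMIs. The authors gave 1 of 31 cell classes to 55882 of 76024 barcodes, and these cells had a median of 8329 to 9703 UMIs per library. Scrublet called 6.49% to 11.1% of the day 1 cells and 1.41% to 4.53% of the day 21 cells doublets. Any pair of libraries shared 26 to 62 barcodes, of which 0 to 3 had the same class in both. Xist, the transcript of the silenced X chromosome, had no UMI in 43.8% of cells from female mice after hyperoxia, against 22.8% in the day 21 female pool kept in room air. The file headers name Cell Ranger 6.0.0 for day 1 and 7.0.1 for day 21, so age and software version cannot be told apart. Summed markers of each lineage (endothelial, mesenchymal, immune, epithelial) were highest in its own classes, except that the lowest epithelial and immune sums lay under the highest sum in a class of another lineage. The class markers of aCap, matrix fibroblasts, myofibroblasts, alveolar macrophages, B, NK and T cells were each highest in the class of that name, those of gCap ranked first or second, and those of neutrophils ranked second. Classical monocytes led in none of their 3 markers (Ly6c2 ranked 3, Ccr2 4 and Plac8 2), and Ace ranked 4 in nonclassical monocytes, Vcam1 3 in venous and Bmx 3 in arterial cells.

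Levels are given in CPM (counts scaled to the total UMIs of a class in 1 library), in the order female then male. The classes were clustered on these same counts, so differences between classes are a description without a test. Classes are ordered by the mean over the libraries of an age, among classes with at least 50 cells in each of them.

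Hspa1a and Hspa1b were uneven between classes. At day 1 Hspa1a had its highest mean in myofibroblasts, at 36.2 and 47.2 CPM, but in the female library pericytes (46.2 CPM) and matrix fibroblasts (43.4 CPM) lay above them. At day 21 its highest mean was in aCap, the aerocytes, capillary cells specialised for gas exchange, at 78.9 and 24.4 CPM in room air and 137 and 61.2 CPM after hyperoxia. Myofibroblasts, at 72.0 and 51.6 CPM in room air and 82.6 and 63.7 CPM after hyperoxia, overlapped them and were higher in both male libraries. It was lowest in NK cells at both ages, where the 6 libraries held 0 to 2 UMIs and the exact Poisson 95% intervals reached at most 3.50 CPM. At day 1 aerocytes had been near the bottom of the class order (1.40 and 0.711 CPM). Hspa1b had its highest day 1 mean in alveolar type 1 cells (8.62 and 10.4 CPM) and its lowest in transient macrophages (0.577 and 0.520 CPM). In the female library matrix fibroblasts (13.3 CPM), venous cells (10.9 CPM) and pericytes (10.4 CPM) lay above the type 1 cells. At day 21 its highest mean over the 4 libraries was in aCap, at 77.4 and 19.3 CPM in room air and 131 and 59.7 CPM after hyperoxia. In male room air, nonclassical monocytes (35.5 CPM) and myofibroblasts (30.4 CPM) were higher than aCap. The lowest mean was in T cells, at 0.680, 0.715, 0.729 and 0.538 CPM.

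Detection per cell was read beside the levels. At day 21, 43.3% and 18.2% of aCap cells from room air and 54.4% and 30.1% of those from hyperoxia held an Hspa1a UMI, at median depths of 11076 to 12423 UMIs per cell. Only 0.903% and 0.413% of the day 1 aerocytes did, at 5798 and 5418 UMIs. T cells, taken as a class with little inducible HSP70, held a UMI in 0.45% to 1.63% of cells at 9735 to 15432 UMIs. Thinned to 2000 UMIs per cell, the day 21 shares in aCap were 13.3%, 4.12%, 19.7% and 10.1%, and 3 to 11 shallower cells per library were left out. The order of the 4 libraries stayed the same.

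Among the other inducible genes, Dnajb1 had the flattest profile. Its highest day 1 class was pericytes (54.6 and 41.3 CPM) and its highest day 21 class aCap (71.3, 58.9, 103 and 63.1 CPM, room air first). Alveolar macrophages were lowest at both ages, with 20.1 and 13.1 CPM at day 1 and 29.8, 24.1, 38.7 and 32.4 CPM at day 21. All 13 pairs of neighbouring classes overlapped in Dnajb1 at day 21, so no step in that order exceeded the spread over libraries. Hsph1 was highest in myofibroblasts at day 1 (31.7 and 36.2 CPM) and in NK cells at day 21 (104, 65.4, 105 and 66.9 CPM). Neutrophils were lowest, at 0.654 and 0.440 CPM and 2.25, 1.80, 5.93 and 3.88 CPM, below every library of the other classes at day 21.

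Hspb1 was also uneven between classes. It was highest in myofibroblasts at day 1, at 1282 and 2103 CPM, and in aCap at day 21, at 366 and 330.4 CPM in room air and 622 and 495 CPM after hyperoxia. The lowest classes were Classical Monocytes 2 at day 1 (10.8 and 3.12 CPM) and T cells at day 21 (1.02, 0.715, 2.40 and 2.42 CPM). At day 21 the 6 endothelial and mesenchymal classes were all above the 8 immune classes. At day 1 the endothelial and mesenchymal classes and type 1 cells led as well, while Interstitial Macrophages 1 (33.3 and 73.3 CPM) overlapped AT2 cells (85.1 and 21.98 CPM).

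**Figure D1:**
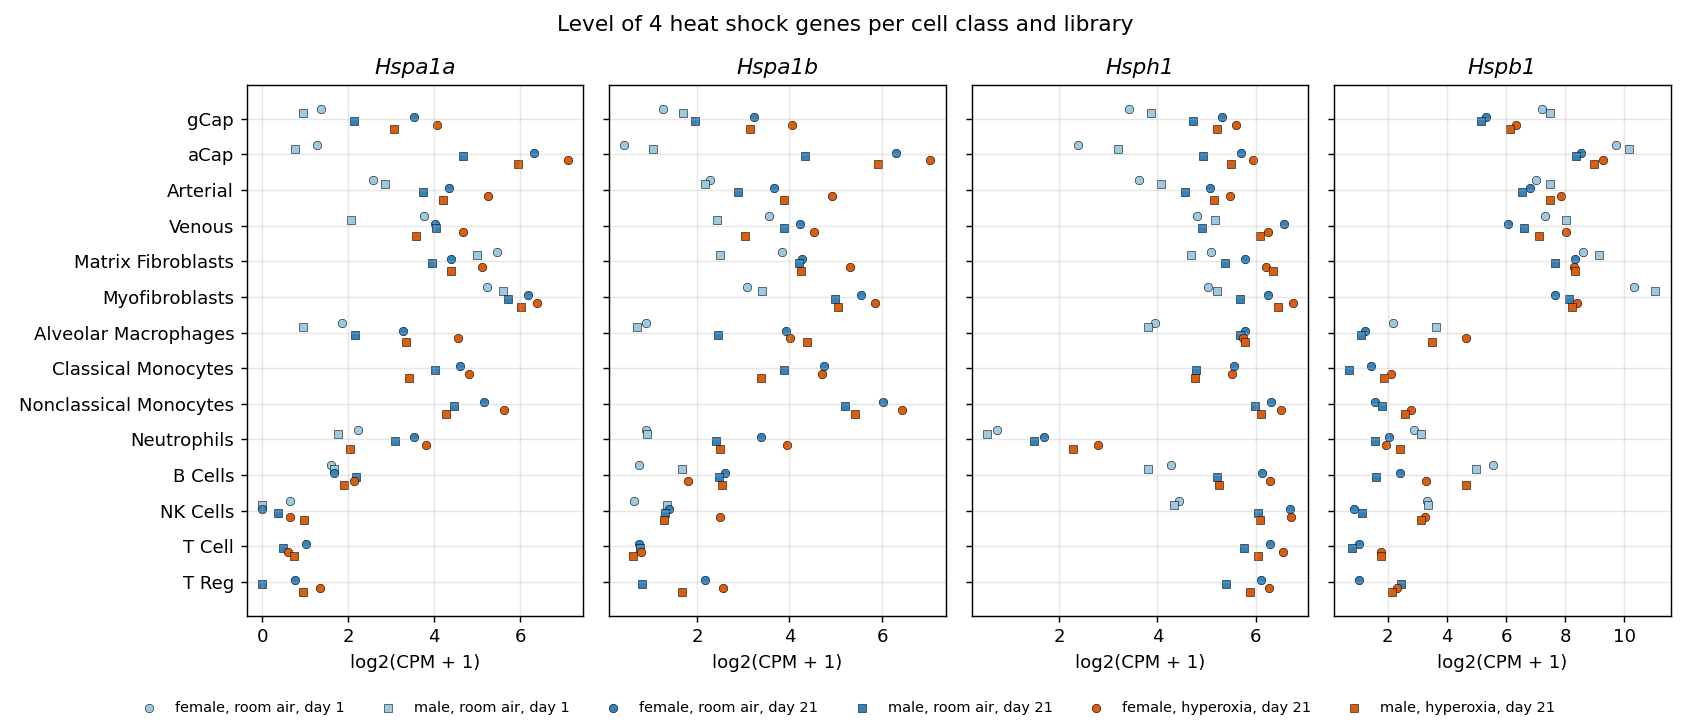
Level of Hspa1a, Hspa1b, Hsph1 and Hspb1 as log2(CPM + 1) on the x axis for each cell class on the y axis, with 1 symbol per library (circles female, squares male). The day 21 symbols of aCap lie far to the right of the day 1 symbols for Hspa1a and Hspa1b and to their left for Hspb1.

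Hspa8 and Hsp90aa1 were detected in every class. Hspa8 was highest in classical monocytes, at 1348 and 1254 CPM in the day 1 class Classical Monocytes 1 and 1789, 1760.1, 1877 and 1504 CPM at day 21. It was lowest in neutrophils, at 280.1 and 231 CPM and 452, 367, 541 and 381 CPM. Hsp90aa1 was highest in myofibroblasts at day 1 (558 and 783 CPM) and in nonclassical monocytes at day 21 (405, 364, 472 and 368 CPM). Its lowest classes were Ngp+ neutrophils at day 1 (78.2 and 67.6 CPM) and neutrophils at day 21 (92.8, 83.4, 102 and 82.0 CPM).

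The mitochondrial pair was highest in macrophages and lymphocytes. Hspd1 led in alveolar macrophages, with 217 and 174 CPM at day 1 and 202, 181, 171 and 203 CPM at day 21. Hspe1 led in NK cells at day 1 (306 and 336 CPM) and T cells at day 21 (315, 349.9, 361 and 329 CPM). Both were lowest in neutrophils, where Hspd1 was at 16.6 and 11.4 CPM and 12.2, 10.8, 19.0 and 13.6 CPM. Hspe1 in neutrophils was at 15.0 and 12.5 CPM and 9.88, 6.31, 12.9 and 16.9 CPM. Hspa5 was highest in matrix fibroblasts, which secrete collagen, at 605 and 428 CPM and 608, 443, 660.4 and 538 CPM. Its lowest levels were in Ngp+ neutrophils at day 1 (91.6 and 72.7 CPM) and T cells at day 21 (154, 136, 165 and 144 CPM). At day 21, 10 to 13 of the 13 neighbouring class pairs overlapped for every member.

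Hyperoxia against room air was fitted with a sex term in 14 classes, over the 4 libraries of day 21. A gene passed at an adjusted p under 0.05 in edgeR's quasi-likelihood test, with Benjamini-Hochberg adjustment over all genes of a class. Of 133 member and class pairs tested, 17 passed (16 higher, 1 lower), which is 12.8%, against 2.28% of all 154767 gene and class pairs. The median log2 change over the member pairs was 0.19, against -0.0022 over all pairs. Both hyperoxia libraries were above both room-air libraries in 48 pairs, which all genes reached in 19.3% of pairs, and below them in 2 (17.2%). The other 7 of the 140 pairs were Hspa1a and Hspa1b in lymphocyte classes, which had too few UMIs to test. In counts summed over a class, fewer cells with a transcript and less of it per cell cannot be told apart.

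Hspb1 passed in 6 classes, more than any other member. In gCap, the general capillary cells, it stood at 39.3 and 34.5 CPM in room air and 79.8 and 68.8 CPM after hyperoxia. Both hyperoxia libraries lay above both room-air libraries, with a log2 change of 1.03 ± 0.09 (SE, n = 2 against 2 libraries, edgeR adjusted p = 2.41e-08). Arterial cells gave 111 and 91.5 CPM in room air and 229 and 177 CPM after hyperoxia, again without overlap, and a log2 change of 1.02 ± 0.11 (edgeR adjusted p = 6.02e-16). In aCap the change was 0.68 ± 0.08 (edgeR adjusted p = 0.00658) from the levels given above. Venous cells held 65.9 and 97.4 CPM in room air and 259 and 137 CPM after hyperoxia, a log2 change of 1.28 ± 0.22 (edgeR adjusted p = 8.71e-06). So all 4 endothelial classes passed. The gCap call held with any 1 library left out (0.92 to 1.13). The arterial call was lost without the male room-air library (0.89), and the aCap call without the female hyperoxia library (0.51). The venous call was lost without either female library (0.79 without the hyperoxia pool, 1.02 without the room-air pool). The median within-class log2 ratio of hyperoxia to room air over 14 classes was 0.98 in females and 0.99 in males.

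Hspa1a and Hspa1b passed in the same 4 classes: aCap, gCap, arterial cells and alveolar macrophages. Hspa1a in aCap had a log2 change of 1.04 ± 0.12 (edgeR adjusted p = 0.00658), with the levels above: each sex was higher after hyperoxia, but the female room-air library exceeded the male hyperoxia library. In gCap Hspa1a was at 10.54 and 3.42 CPM in room air and 15.7 and 7.31 CPM after hyperoxia, and the groups overlapped in the same way (0.78 ± 0.16, edgeR adjusted p = 0.00595). In arterial cells, again with the female room-air library above the male hyperoxia library, it was at 19.2 and 12.3 CPM in room air and 36.9 and 17.5 CPM after hyperoxia (0.79 ± 0.22, edgeR adjusted p = 0.0185). Hspa1b had its largest change of these classes in arterial cells, at 11.7 and 6.39 CPM in room air and 29.3 and 13.7 CPM after hyperoxia. There the hyperoxia libraries were both above the room-air libraries, with a log2 change of 1.27 ± 0.26 (edgeR adjusted p = 0.000161). In aCap Hspa1b changed by 1.13 ± 0.16 (edgeR adjusted p = 0.0157) and in gCap by 1.10 ± 0.17 (edgeR adjusted p = 0.000189).

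These calls changed when a pool was left out, in fits of 3 libraries that also had no sex covariate. Without the covariate alone, 14 of the 17 member calls were lost, so the effect of a pool and that of the covariate cannot be told apart. Without the female hyperoxia library the log2 change of Hspa1a in aCap was 0.24, and without the male room-air library it was 0.34; neither passed. The gCap values were 0.04 and 0.15, and the arterial values 0.14 and 0.49. For Hspa1b the same 2 omissions gave 0.30 and 0.31 in aCap, 0.44 and 0.49 in gCap and 0.58 and 0.87 in arterial cells. Leaving out the female room-air library raised Hspa1a in aCap to 2.01 and in gCap to 1.77, and ended the arterial calls of both genes (1.13 for Hspa1a, 1.74 for Hspa1b). It raised Hspa1b to 2.29 in aCap and 2.03 in gCap. Leaving out the male hyperoxia library raised Hspa1a in arterial cells to 1.22.

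The female hyperoxia pool also held the cells without Xist, of which 0.109% had a UMI of a Y-linked gene, against 76.9% of such cells in the male hyperoxia library. In its aCap, 28.4% of cells had no Xist UMI, against 2.18% in the female pool of room air, and Hspa1a was at 201 CPM in those cells and 114 CPM in the others. In gCap 35.5% of cells had none, with Hspa1a at 21.96 against 12.57 CPM. With those cells left out, a choice made after seeing the data, the log2 change of Hspa1a was 0.89 in aCap, which passed, and 0.60 in gCap, which did not. Hspb1 was at 757 CPM in cells without and 573 CPM in cells with Xist in aCap, and at 77.7 and 80.9 CPM in gCap. Its gCap change was 1.05 without them. The venous call of Hspb1 (1.28) and the calls of Hspa1a (1.01) and Hspa1b (0.91) in alveolar macrophages were lost there, as was that of Hsph1 in gCap (0.30).

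**Figure D2:**
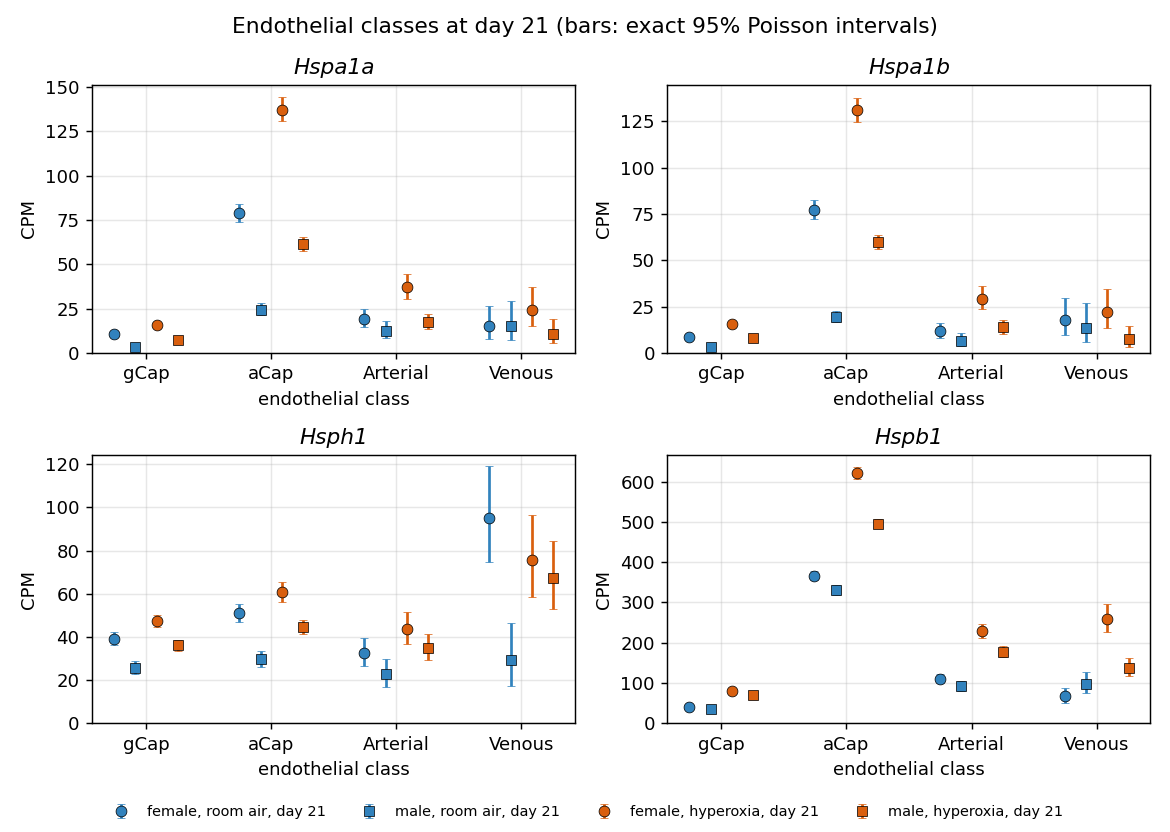
Level in CPM (y axis, linear) of Hspa1a, Hspa1b, Hsph1 and Hspb1 in the 4 endothelial classes at day 21 (x axis), with 1 symbol per library and exact 95% intervals for counting error (Poisson). Hspb1 is higher in both hyperoxia libraries in every class, while for Hspa1a and Hspa1b in aCap and gCap the female room-air library lies above the male hyperoxia library.

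The remaining members passed in fewer classes. Hsph1 passed in gCap only, at 39.1 and 25.5 CPM in room air and 47.3 and 36.0 CPM after hyperoxia, with overlapping groups and a log2 change of 0.39 ± 0.09 (edgeR adjusted p = 0.018). It was lost in DESeq2 (0.41) and without the female hyperoxia (0.17), male room-air (0.11) or male hyperoxia library (0.56), and was 0.73 without the female room-air library. In neutrophils, where its levels were lowest, the groups of Hsph1 did not overlap and the log2 difference was 1.23 ± 0.38 (edgeR adjusted p = 0.21). Hsp90aa1 also passed in gCap only, at 159 and 126 CPM in room air and 212 and 178 CPM after hyperoxia, where the groups did not overlap (0.47 ± 0.08, edgeR adjusted p = 0.000257). Its call was lost without the female hyperoxia (0.34), male hyperoxia (0.59) or male room-air library (0.31). Hspa5 was the 1 member that fell, in classical monocytes, at 394 and 283 CPM in room air and 289 and 229 CPM after hyperoxia. The groups overlapped there (-0.36 ± 0.09, edgeR adjusted p = 0.0055). That call was lost in DESeq2 (-0.36), with doublets left out (-0.35) and with no covariate (-0.37). It held without the male room-air library (-0.56) and was lost without the female hyperoxia (-0.53), female room-air (-0.14) or male hyperoxia library (-0.23).

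Dnajb1, Hspa8, Hspd1 and Hspe1 passed in 0 of 14 classes each. The class of smallest p for Dnajb1 was gCap, at 44.7 and 37.5 CPM in room air and 59.0 and 42.5 CPM after hyperoxia (0.32 ± 0.09, edgeR adjusted p = 0.0657). Dnajb1 in gCap passed under 5 alternatives: no filter on low counts (0.33), upper-quartile scaling (0.32), doublets left out (0.32), Xist-free cells left out (0.34) and the female room-air library left out (0.46). For Hspa8 it was matrix fibroblasts, at 760.0 and 766 CPM in room air and 1080.1 and 979 CPM after hyperoxia (0.42 ± 0.15, edgeR adjusted p = 0.384). Hspd1 in neutrophils had a log2 difference of 0.45 ± 0.20 (edgeR adjusted p = 0.396) at levels of 12.2 and 10.8 CPM in room air and 19.0 and 13.6 CPM after hyperoxia. Hspe1 there had 0.82 ± 0.28 (edgeR adjusted p = 0.253), and passed without either female library (0.97 without the hyperoxia pool, 1.21 without the room-air pool), without the filter and without the Xist-free cells. Over all members, 43 pairs had an unadjusted p under 0.05. Without the share of all genes at that threshold, this count cannot be read as an excess.

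**Figure D3:**
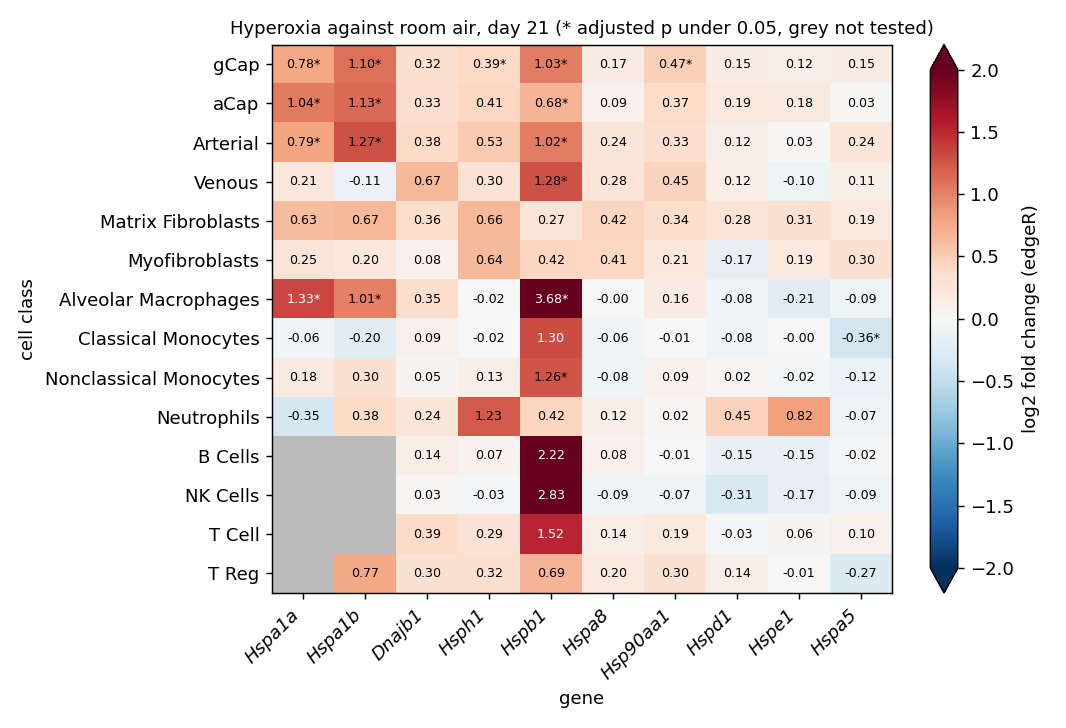
Fitted log2 change, hyperoxia against room air at day 21, for each cell class (y axis) and member (x axis), with colours from blue (lower) to red (higher) and a star at an edgeR adjusted p under 0.05. The stars gather in the endothelial rows and the Hspb1 column, and grey cells were not tested.

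Outside the endothelium, the calls of Hspa1a, Hspa1b and Hspb1 in alveolar macrophages were all lost when cells called doublets were left out. Co-detection with transcripts of other cells was read for Hspb1 only. Hspb1 there rose from 1.35 and 1.15 CPM in room air to 23.9 and 10.2 CPM, the largest change of any member (3.68 ± 0.41, edgeR adjusted p = 1.79e-07). The sums behind these levels were 16 and 8 UMIs in room air and 55 and 50 after hyperoxia, and 1 cell of the female hyperoxia library held 28 of its 55. The summed endothelial markers Pecam1, Cdh5 and Cldn5 stood at 32.6 and 48.2 CPM in room air and 541 and 354 CPM after hyperoxia in the same class. Of the hyperoxia macrophages with an Hspb1 UMI, 15 of 17 female and 16 of 24 male cells also held a UMI of those markers. The share among macrophages without an Hspb1 UMI is not given here, so these counts show no enrichment. The markers were also read outside the endothelium, with 346 to 532 CPM in B cells without doublets, the highest of the immune classes. Without the cells called doublets, Hspb1 was at 1.04, 1.19, 2.52 and 4.44 CPM and the endothelial markers at 28.9, 28.5, 45.4 and 61.8 CPM. The Hspb1 difference was then 1.60 (edgeR adjusted p = 0.235).

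Hspa1a in alveolar macrophages was at 8.70 and 3.44 CPM in room air and 22.6 and 9.22 CPM after hyperoxia, without overlap (1.33 ± 0.28, edgeR adjusted p = 0.00113). Without doublets its difference was 0.24 and that of Hspa1b 0.37, and neither passed. With all cells Hspa1b there was at 14.2 and 4.45 CPM in room air and 15.2 and 19.7 CPM after hyperoxia. The log2 ratio of hyperoxia to room air for Hspa1b was thus 0.16 in females and 2.08 in males. The Hspa1a value was 0.49 without the female hyperoxia, 0.70 without the male room-air and 2.04 without the female room-air library. The Hspa1b value, 1.01 ± 0.31 in the full fit (edgeR adjusted p = 0.0378), lost its call without the female hyperoxia (0.95), male hyperoxia (0.55) or male room-air library (0.27). It was 1.94 without the female room-air library.

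Nonclassical monocytes showed the same dependence for Hspb1. Its change there was 1.26 ± 0.32 (edgeR adjusted p = 0.0403), at 1.97 and 2.49 CPM in room air and 5.93 and 4.97 CPM after hyperoxia, and -0.05 without doublets. The call was also lost when any 1 of the 4 libraries was left out (1.09 to 1.45). In the endothelial classes leaving out doublets moved Hspb1 to 1.03 in gCap, 1.02 in arterial cells, 1.27 in venous cells and 0.74 in aCap, and all 4 passed.

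**Figure D4:**
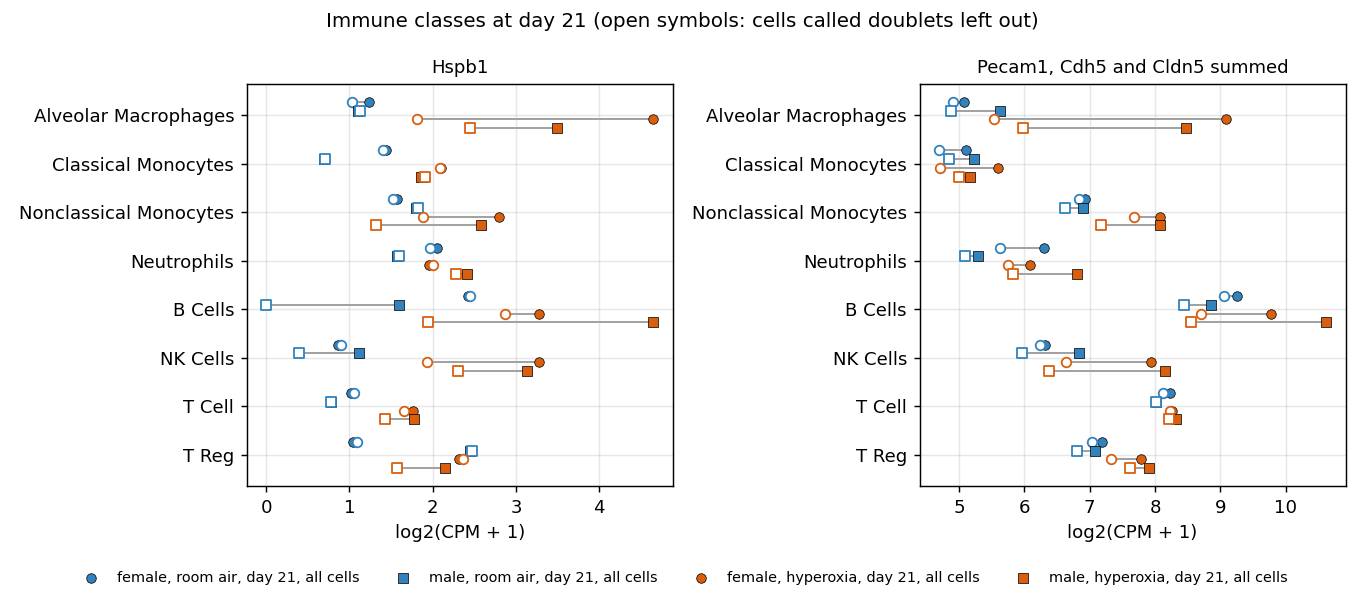
Hspb1 (left) and the summed endothelial markers Pecam1, Cdh5 and Cldn5 (right) as log2(CPM + 1) on the x axis in the 8 immune classes at day 21 (y axis), with filled symbols for all cells and open symbols with doublets left out. In alveolar macrophages the filled hyperoxia symbols lie far to the right of the open ones in both panels.

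Immediate early and dissociation-associated genes moved in some of the same classes. Of 391 pairs tested for the 29 genes, 50 passed after hyperoxia (46 higher, 4 lower), which is 12.8%, the same share as the heat shock genes, with a median log2 change of 0.16. Their summed level was higher in both hyperoxia libraries than in both room-air libraries in 7 of 14 classes and lower in 1. Alveolar macrophages had 15 of 29 (13 higher, 2 lower), where 10.9% of all genes passed, with sums of 5982 and 6212 CPM in room air and 7137 and 6826 CPM after hyperoxia. In gCap 9 of 28 passed, all higher, where 2.53% of all genes passed. The sum of the list there was 6478 and 7346 CPM in room air and 8120 and 7954 CPM after hyperoxia. Arterial cells had 7 of 28 higher, where 2.12% of all genes passed, with sums of 6810 and 7784 against 8671 and 8326 CPM. In aCap 0 of 28 passed, where 0.709% of all genes did. The aCap sums were higher in both hyperoxia libraries, at 7731 and 8680 CPM in room air and 8996 and 8809 CPM after hyperoxia. The median share of mitochondrial UMIs was higher in both hyperoxia libraries in 1 of 14 classes. In gCap its room-air values were 1.45% and 1.88% and its hyperoxia values 1.70% and 1.76%. The part of handling in the hyperoxia result was not tested.

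Fosb and Jun, immediate early transcription factors of the AP-1 family, and Serpinh1, the collagen chaperone HSP47, were named from the lists read beside the members, by the number of classes and then by the size of the median change. Ier3, an immediate early gene that also passed in 3 classes, rose in 2 and fell in 1. Fosb rose in 4 classes, by 0.46 in alveolar macrophages, 0.46 in arterial cells (0.41 without doublets, which did not pass), 0.72 in classical monocytes and 0.99 in nonclassical monocytes on the log2 scale. Jun rose in 3: 0.96 in alveolar macrophages (0.04 without doublets), 0.46 in classical monocytes and 0.52 in nonclassical monocytes. Serpinh1 rose in 3 immune classes, at 3.70 in alveolar macrophages, 2.60 in B cells and 1.37 in nonclassical monocytes. Without doublets it was 1.26 and 0.40 in the first and last of these, did not pass, and was not tested in B cells.

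Other parts of the chaperone system changed little after hyperoxia. In the list named cytosolic heat shock network (22 genes, such as Hsp90ab1, Dnaja1 and Bag3) 4 of 293 pairs passed, all higher, with a median log2 change of 0.07. Of these calls, 3 were those of the collagen chaperone Serpinh1 in immune classes given above, and 1 was of Hsp90ab1. The count is thus mostly that of 1 gene and describes no response of the network. The regulators of the response (Hsf1, Hsf2, Hsbp1 and Bag1) had 0 of 55, the cytosolic chaperonin 0 of 112 and other mitochondrial chaperones and proteases 0 of 98. Endoplasmic reticulum chaperones and genes of the unfolded protein response, 20 in all, had 5 of 280, all lower. These shares of 0% to 1.79% stand beside 2.28% for all genes.

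Day 21 against day 1 in room air was fitted on 4 libraries with sex as a covariate, in 10 classes. Of 95 pairs tested, 56 passed (25 higher, 31 lower), or 58.9%, against 54.3% of all 109029 pairs, so the share is near that of all genes and only the pattern by gene is described. Both day 21 libraries were above both day 1 libraries in 41 pairs (45.4% of all gene pairs) and below them in 33 (32%). Some members rose in most classes tested (Hspa1a, Hspa1b, Hsph1) and some fell in most (Hspb1, Hsp90aa1 and Hspe1). Dnajb1, Hspa8, Hspa5 and Hspd1 passed in 1 to 3 classes each, and the 3 Hspd1 calls were all lower. With upper-quartile scaling the median of all genes moved from 0.0059 to -0.14 and the member calls to 65, of which 23 were higher. Each gene named as rising or falling in most classes kept its majority direction there. As for hyperoxia, the age fits with 1 library left out also had no sex covariate, so both changed at once. Without the covariate alone, 53 of the 56 calls remained.

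Hspa1a rose in 5 of 8 classes tested and fell in 1. In aCap it stood at 1.40 and 0.711 CPM at day 1 and 78.9 and 24.4 CPM at day 21, from 4 and 2 UMIs to 921 and 206, a log2 change of 5.49 ± 0.37 (n = 2 against 2 libraries, edgeR adjusted p = 8.12e-48). Hspa1b in aCap stood at 0.351 and 1.07 CPM at day 1 and 77.4 and 19.3 CPM at day 21, a change of 5.94 ± 0.41 (edgeR adjusted p = 2.74e-46). With 1 to 4 UMIs in each day 1 library, these are fitted values and no bounds. In gCap Hspa1a went from 1.57 and 0.918 CPM to 10.54 and 3.42 CPM (2.35 on the log2 scale). The fall was in matrix fibroblasts, from 43.4 and 30.8 CPM to 19.9 and 14.6 CPM (-1.28 ± 0.29, edgeR adjusted p = 0.00134). Hspa1b rose in 6 of 8 classes, which besides aCap were gCap (1.49), arterial cells (1.18), myofibroblasts (2.05), alveolar macrophages (3.18) and neutrophils (2.82).

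Counting reads in introns is one way in which the 2 Cell Ranger versions can differ, so the age fit was repeated on genes without introns alone. There 28.4% of 2778 pairs passed, and Hspa1a and Hspa1b passed in 14 of 16 pairs, all higher. In aCap the values were 6.09 for Hspa1a and 6.54 for Hspa1b, while Hspa1a in matrix fibroblasts (-0.56) and Hspa1b in gCap (2.07) did not pass. Without the female day 21 library Hspa1a passed in 3 classes and Hspa1b in 3, against 6 each in the full fit, and aCap was among the calls under every setting.

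Hsph1 rose in 8 of 9 classes. In aCap it went from 4.21 and 8.18 CPM to 51.0 and 29.6 CPM, without overlap (2.58 ± 0.26, edgeR adjusted p = 1.26e-21). The gene has 14824 intronic bases, and how far the software versions moved it was not tested. Its calls were 5 without either female library. Dnajb1 rose in aCap alone, from 52.6 and 37.0 CPM to 71.3 and 58.9 CPM (0.46 ± 0.17, edgeR adjusted p = 0.0171), and the call was lost in DESeq2 (0.44), with upper-quartile scaling (0.36) and without the female day 21 (0.32) or male day 1 library (0.24). It was 0.71 without the female day 1 library.

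Hspb1 fell in all 10 classes, from -3.76 in B cells to -0.67 in arterial cells on the log2 scale. In B cells its level went from 46.5 and 30.5 CPM to 4.38 and 2.03 CPM (-3.76 ± 0.39, edgeR adjusted p = 5.35e-05). In myofibroblasts it went from 1282 and 2103 CPM to 202 and 276 CPM (-2.89), and in gCap from 148 and 179 CPM to 39.3 and 34.5 CPM (-2.25). Both day 21 libraries lay below both day 1 libraries in each of these classes. Without doublets it passed in 9 of 9 classes tested, and without the male day 1 library in 7 of 10. The rise of Hspb1 after hyperoxia in gCap (to 79.8 and 68.8 CPM) stayed below the day 1 level.

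Hsp90aa1 fell in 7 of 10 classes, most in myofibroblasts, from 558 and 783 CPM to 289.6 and 241 CPM (-1.42 ± 0.18, edgeR adjusted p = 5.42e-07). Hspe1 fell in 8 classes and rose in aCap. Its largest fall was in matrix fibroblasts, from 215 and 239 CPM to 118 and 102 CPM (-1.20 ± 0.18, edgeR adjusted p = 1.33e-05). Hspd1 fell in 3 classes and by most in the same one, from 134 and 147 CPM to 83.9 and 71.3 CPM (-1.01 ± 0.18, edgeR adjusted p = 0.000147). Hspd1 and Hspe1 both fell in matrix fibroblasts, arterial (-0.56 and -0.86 for Hspd1 and Hspe1) and venous cells (-0.80 and -1.04), and in the other 6 classes with an Hspe1 call Hspd1 did not pass.

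Hspa8 rose in neutrophils, from 280.1 and 231 CPM to 452 and 367 CPM (0.56 ± 0.10, edgeR adjusted p = 2.41e-06), and in aCap (0.55), and fell in venous cells (-0.44). Hspa5 rose in aCap (0.53) and gCap (0.40). It fell in B cells, from 299.9 and 245 CPM to 214 and 188 CPM (-0.60 ± 0.18, edgeR adjusted p = 0.0184), a call lost in DESeq2 (-0.61) and without either day 1 library (-0.51 without the female, -0.70 without the male). In aCap 8 of 10 members passed with age, 7 of them higher, where 53.5% of all genes passed. In matrix fibroblasts 5 of 10 passed, all lower, which is near the 48.0% of all genes there.

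**Figure D5:**
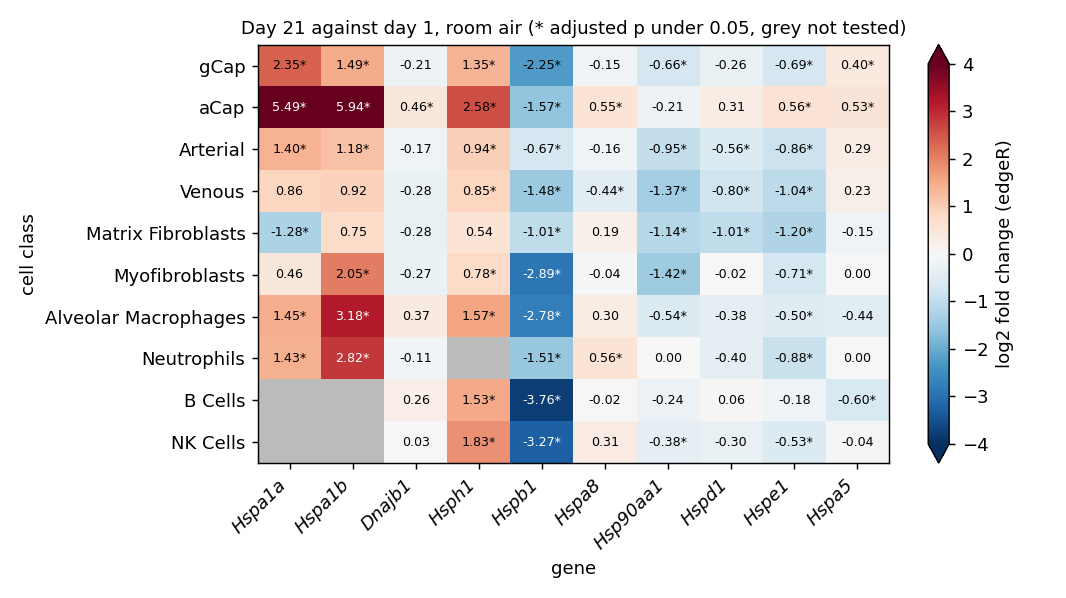
Fitted log2 change, day 21 against day 1 in room air, for each cell class (y axis) and member (x axis), with colours from blue (lower at day 21) to red (higher) and a star at an edgeR adjusted p under 0.05. Hspb1 is blue in all 10 classes, while Hspa1a, Hspa1b and Hsph1 are red in most, and grey cells were not tested.

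The immediate early sum and the mitochondrial share, read beside the members, were lower at day 21 in most classes. In these measures too, age and software version cannot be told apart. Of all gene and class pairs, 54.3% passed (25.7% lower at day 21). Of 283 pairs of immediate early genes tested, 209 passed (73.9%), 171 of them lower at day 21, with a median log2 change of -0.66. Their sum in aCap was 13749 and 12138 CPM at day 1 and 7731 and 8680 CPM at day 21. It was lower in both day 21 libraries in 7 of 10 classes and higher in neutrophils, where 10 genes of the list rose and 5 fell and where Hspa1a and Hspa1b also rose, and the median mitochondrial share was lower in 9 of 10. Hspb1, Hsp90aa1 and Hspe1 fell in most classes, as those measures did. Hspa1a (5 of 8 classes), Hspa1b (6 of 8) and Hsph1 (8 of 9) went the other way and rose in most. The part of handling in the age result was not tested.

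Ern1, Bag1 and Grpel1 are named here by their median change, since Cct2, Ubb and Btg1 also passed in 10 of 10 classes. Of all gene and class pairs, 54.3% passed (28.6% higher, 25.7% lower). The cytosolic chaperonin, which folds actin and tubulin, fell in 66 of 80 pairs (82.5%) and rose in 0 (median -0.80). The shares called in the other lists of this paragraph were below that of all genes. The cytosolic heat shock network had 28 higher and 62 lower calls of 211 (42.7%). The regulators had 19 of 38 (50%), all lower, with Bag1, an HSP70 exchange factor, down in 10 of 10 classes (-1.69 to -0.49). Grpel1, the mitochondrial HSP70 exchange factor, was down in 10 of 10 (-1.46 to -0.52). Without doublets its matrix fibroblast value (-0.48, edgeR adjusted p = 0.0573) did not pass. The mitochondrial list as a whole had 7 higher and 19 lower calls of 68 (38.2%). The endoplasmic reticulum list had 63 higher and 28 lower calls of 199, or 45.7% (51 and 50 calls with upper-quartile scaling). Ern1, a sensor of unfolded proteins, rose in 10 of 10 classes (1.31 to 2.98).

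Female against male was fitted over all 6 libraries with age and treatment as a covariate, in 10 classes. Of 96 member pairs 3 passed, all higher in females, or 3.13%, against 0.105% of all 112850 pairs (0.0452% higher and 0.0603% lower in females). They were Hspa1a in aCap and gCap and Hspa1b in aCap. Females were above males in all 3 conditions in 26 pairs, which all genes reached in 15.4% of pairs, and below in 2 (11.7%). In aCap Hspa1a was higher in the female library at day 21 with room air and with hyperoxia. At day 1 its 1.40 against 0.711 CPM came from only 4 and 2 UMIs. The fitted log2 difference was 1.38 ± 0.13 (n = 3 against 3 libraries, edgeR adjusted p = 0.00119). In gCap the 3 pairs were 1.57 against 0.918, 10.54 against 3.42 and 15.7 against 7.31 CPM (1.25 ± 0.18, edgeR adjusted p = 0.032). Hspa1b in aCap was higher in females at day 21 but not at day 1, where the sums were 1 and 3 UMIs (1.47 ± 0.18, edgeR adjusted p = 0.0186).

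All 3 calls held with any 1 library left out, and the Hspa1b call was lost in DESeq2 (1.04). The gCap call was lost without the Xist-free cells of the female hyperoxia pool (1.09), and none passed without the covariate. The median mitochondrial share was lower in females in all 3 conditions in 5 of 10 classes, and the immediate early sum was higher in 1. Of the immediate early genes, Nr4a1 rose in gCap (1.19) and Nfkbiz in alveolar macrophages (1.08, and 0.85 without doublets, which did not pass), while Egr1, next by the same rule, passed in 0 classes (median 0.36). The other 5 lists had 0 calls.

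For the members without a call the pairs of smallest p were Dnajb1 in aCap (0.49 ± 0.11, edgeR adjusted p = 0.559), Hsph1 in B cells (0.81 ± 0.19, 0.8) and Hspa5 in matrix fibroblasts (0.41 ± 0.11, 0.792). Dnajb1 in aCap passed without either room-air library of day 21 (0.63 in both fits) and without the filter on low counts (0.48), as did Hspa8 in neutrophils without that filter (0.35). Hspa8 in neutrophils (0.34), Hsp90aa1 in neutrophils (0.14), Hspb1 in myofibroblasts (-0.37), Hspd1 in venous cells (-0.45) and Hspe1 in venous cells (-0.28) had adjusted p of 0.342 to 0.999 in edgeR. In all, 26 pairs had an unadjusted p under 0.05, a count with no share of all genes beside it.

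Whether the response to hyperoxia differed between the sexes was asked with a term for females after hyperoxia, which leaves 1 residual degree of freedom. Only Hspb1 in venous cells passed, 1 of 96 pairs or 1.04%, against 0.428% of all 120233 pairs. It stood at 158 and 262 CPM at day 1 and 65.9 and 97.4 CPM in room air and 259 and 137 CPM after hyperoxia at day 21. The female hyperoxia library was the highest of the 4 at day 21, whereas in room air females were below males at both ages. The term was 1.63 ± 0.40 (edgeR adjusted p = 0.0296). It did not pass in DESeq2, without the filter on low counts, or with equal cell numbers. In all 14 pairs had an unadjusted p under 0.05, again with no share of all genes beside the count. Among them were Hspa1a in neutrophils (1.53 ± 0.53, edgeR adjusted p = 0.169) and Hspa1b in alveolar macrophages (-1.996, 0.369). The pairs of smallest p of the other 7 members (Dnajb1 in arterial cells, Hsph1 in matrix fibroblasts, Hspa8 and Hsp90aa1 in myofibroblasts, Hspd1 in NK cells, Hspe1 in neutrophils and Hspa5 in gCap) had values of -0.83 to 0.81 and did not pass.

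Read within each sex, with no test, more classes were higher after hyperoxia in females than in males for several members. Hspa8 and Hsp90aa1 were each higher in 14 of 14 classes in females, and in 9 and 10 of 14 in males. Hspa1a was higher in 12 of 13 classes above the floor of 3 UMIs in females (median log2 ratio 0.57) and in 7 of 12 in males (0.31). Hsph1 went the other way, with 11 of 14 in females (0.23) and 13 of 14 in males (0.48). Immediate early genes had 11 interaction calls of 285, 10 of them lower in females after hyperoxia: Egr1 in aCap (-1.38), arterial cells (-1.35), gCap (-1.23) and neutrophils (-0.71), and Fos in arterial cells (-1.44) and aCap (-1.18) among them. Without doublets the arterial calls of Egr1 and Fos and the aCap call of Fos did not pass. Mt1, a metallothionein, had 2.65 in matrix fibroblasts and -1.53 in neutrophils.

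At the level of single aerocytes, Hspa1a and Hspa1b were found together. In room air at day 21, Hspa1b was detected in 62.0% of female aCap cells with an Hspa1a UMI and 29.1% of those without, and in males in 25.8% and 15.1%. With hyperoxia they were 74.9% and 34.0% in females and 66.8% and 15.5% in males. Median depths were 12019 to 13189 UMIs in cells with and 10696 to 12070 in cells without an Hspa1a UMI, and reads that fit both genes could also pair them.

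Genes with the most similar pattern were sought over 60 class and library sums, after removing each class's mean, among 7403 genes that are not members. The correlations share libraries and depth and are a description. The sums span both ages, and thus both software versions, so differences with age enter every r. The part of age in these values was not tested. Hspa1a and Hspa1b were most like each other (r = 0.88), and Hspd1 and Hspe1 reached 0.77. Outside the members, Hspa1b was most like Chordc1 (0.83), Luc7l (0.80) and Naa16 (0.79), and Hspa1a was most like Hsp90b1 (0.74), Dusp16 (0.74) and Luc7l (0.73) outside the members. Dnajb1 was most like Dnaja1 (0.75), Stip1 (0.71) and Chordc1 (0.68), which are all in the list of the cytosolic heat shock network. Hspa8 was most like Dnaja1 (0.85), Orai2 (0.83) and Chordc1 (0.79). Hsp90aa1 was nearest to Eif3a (0.82), Kpnb1 (0.80) and Hsp90ab1 (0.77), and Hspe1 to Cct3 (0.82), Hsp90ab1 (0.82) and Mybbp1a (0.81). The nearest genes of Hsph1 were Tnpo3, Snd1 and Chordc1 (0.90 each), those of Hspd1 Ftsj3 (0.74), Cacybp (0.70) and Hspa9 (0.69), and those of Hspa5 Hsp90b1 (0.80), Pacs2 (0.73) and Sh3bgrl (0.73). Hspb1 had r of -0.18 to Hspa1a, -0.32 to Hspa1b, -0.45 to Hsph1, 0.0090 to Dnajb1 and 0.51 to Hsp90aa1. With age Hspb1 fell in 10 of 10 classes, while Hspa1a, Hspa1b and Hsph1 rose in most classes tested. After hyperoxia Hspb1, Hspa1a and Hspa1b all rose in aCap, gCap and arterial cells. The nearest genes of Hspb1 were Ddah2 (0.83), Crip2 (0.81) and Timp3 (0.80).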

How the data were processed

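The authors deposited UMI counts for each gene in each barcode, made with Cell Ranger on a 10x Genomics 3′ library. The file headers name version 6.0.0 for day 1 and 7.0.1 for day 21, and the submitters' processing notes name Cell Ranger 6.0.0, Seurat 4.1.1 and mm10. Cell classes were the authors' deposited annotation, and barcodes without a class entered no comparison. The 10 members and all lists were chosen with earlier results of these data known. Counts were summed per library and class, for classes with at least 50 cells in each library compared. Sums were filtered with filterByExpr, scaled by TMM and tested with edgeR 4.0.16 (R 4.3.3, limma 3.58.1), with Benjamini-Hochberg adjustment over all genes of a class. In the interaction, females and males after hyperoxia are compared with a single female-male difference that day 1 and day 21 room air share. Per comparison, the pairs with full statistics were each member's largest called change with each library on the higher side holding 20 UMIs or more, or else its smallest p. Hspa1b in the sex comparison fell under that minimum and is given by its smallest p. Other calls are also named, after their values were seen. From the lists, those 3 genes were named that passed in most classes of a comparison, ties going to the larger absolute median change. Within-sex log2 ratios used a prior count of 2. Doublets were called with Scrublet in scanpy 1.11.5. Poisson and binomial 95% intervals cover counting error only.

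Alternatives tried were the DESeq2 1.42.0 test, no covariate, no filter, scaling by the upper quartile, each library left out, doublets left out, equal cell numbers, a stricter cell filter (1000 genes, 10% mitochondrial UMIs) and, for age, genes without introns. In the sex comparison, fits with 1 library left out kept the covariate, while those for hyperoxia and age had none. Leaving out cells without Xist was added after seeing the data. On simulated counts for gCap, the hyperoxia fit recovered 69% of changes of log2 1 and 98% of log2 2, the sex fit 86.5% and 100%, and the interaction fit 7.45% and 78.6%. For matrix fibroblasts these shares were 28.6% and 89%, 61.6% and 99%, and 6.06% and 44.8%. Each of these fits also made 2 to 8 false calls. Every simulated gene had the same set dispersion, and libraries differed only in depth and the planted changes. The shares are therefore not the power of the comparison of these pools.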

Additional observations from a re-analysis of the deposited data

Results flagged for a closer look

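The term for females after hyperoxia passed for Hspb1 in venous cells, at 1.63 ± 0.40 on the log2 scale (edgeR adjusted p = 0.0296). The term rests on 1 female hyperoxia pool and a fit with 1 residual degree of freedom, so a difference between the sexes and one between pools cannot be told apart. It did not pass in DESeq2, without the filter on low counts or with equal cell numbers (0.96 to 1.62).

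Barcodes to which the authors gave no class entered no comparison above. In them, Hspa8 was at 1268 and 1183 CPM in room air at day 21 and at 1458 and 1289.5 CPM after hyperoxia (female and male). Hsp90aa1 was at 332 and 275 CPM in room air and at 374 and 361 CPM after hyperoxia. For both genes each hyperoxia value lay above both room-air values, as for Hsph1 and Hspe1. The groups were not tested, and the share of all genes that did so in these barcodes was not counted. Among gene and class pairs it was 19.3%. The other 6 members overlapped, among them Hspb1 with 57.9 and 38.6 CPM in room air and 52.7 and 51.6 CPM after hyperoxia. These barcodes numbered 2457 to 3938 per library at day 21, with a median mitochondrial share of 3.35% to 4.19%.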

How the results depend on the processing

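The number of member calls depended on the setting. For hyperoxia the 17 calls became 6 in DESeq2, 3 without the sex covariate, and 5 to 20 with 1 library left out (5 without male room air, 8 without female hyperoxia). Calls still made were 6, 3 and 3 to 12 of the 17, and 12 without doublets. For age the 56 calls became 33 in DESeq2 and 14 when only genes without introns were fitted, which leaves 16 member pairs; leaving out 1 library gave 42 to 56. For sex the 3 calls became 2 in DESeq2, 11 without the filter on low counts, 0 without the covariate, and 3 to 9 with 1 library left out (9 without either day 1 library, 5 without either room-air library of day 21). For the interaction the 1 call became 0 in DESeq2, 0 without the filter, 0 with equal cell numbers and 2 without doublets. The cause of these moves was not tested. The interaction term of Hspe1 in neutrophils, -0.83, was 0.56 without the female hyperoxia cells that lacked Xist. Leaving out libraries was not run for the interaction, since no residual degree of freedom would remain. No pairing by replicate was possible because the labels number no replicates and each group has 1 library. The covariates of the fits were the only matching of libraries. With doublets left out, the higher share of all hyperoxia calls went from 71.4% to 52.2%, and with upper-quartile scaling that of all age calls from 52.7% to 44.1%. Of the single pairs and levels under all alternatives, 392 values kept their side, 41 lost and 13 gained a call, and 45 moved by more than their error. Hspa1a was not tested for hyperoxia in 4 lymphocyte classes (0 to 11 UMIs per library), nor Hspa1b in 3 (2 to 16 UMIs).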
